A study of Mus musculus with 4 samples.

Results

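Genes of MHC class I and class II antigen presentation were followed in 4 primary mouse mammary tumors. The members were all H2 genes of the K, D, L, Q, T, M, A, E, O, DM and Bl series, without the unrelated H2-Ke genes, together with B2m, Tap1, Tap2, Tapbp, Psmb8, Psmb9, Psmb10, Cd74, Ciita, Nlrc5 and Cd1d1. They were found by name and made up 51 of 23746 rows of the expression tables, 39 of class I and 12 of class II, and no row carried an H2-L name. H2-A, H2-E, H2-O and H2-DM genes with Cd74 and Ciita were counted as class II and every other member as class I. Of these, 35 reached 1 FPKM (fragments per kilobase of transcript, scaled to the mapped fragments of a tumor) in at least 2 tumors and were tested, 26 of class I and 9 of class II.

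Tumors 26043 and 26044 were the triple-mutant ones (genotype WapCreC;Rank;Brca1;p53) and tumors 26048 and 26050 the double-mutant ones (genotype WapCreC;Brca1;p53), all from female mice. All 4 tumors carried the WapCreC transgene, whose Cre recombinase is driven by the whey acidic protein promoter in mammary epithelium, and floxed Brca1 and p53 alleles, and the genotypes differed in the floxed alleles of Rank (Tnfrsf11a), the receptor of the osteoclast differentiation factor RANKL. The paper describes the Cre activity in luminal and basal epithelial cells. Whether stroma and leukocytes of these tumors kept the floxed alleles intact was not measured here. The double- and triple-mutant females are described as littermates, but neither the pairs nor the age and H2 haplotype of the sequenced animals are given in the sources used here. PolyA RNA of whole tumors was sequenced, so each value adds tumor cells and all other cells of the piece.

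MHC class I molecules sit on nearly every nucleated cell and show peptides from the cytosol to CD8+ T cells. Each consists of a heavy chain, encoded by an H2 gene, and the light chain B2m, and is filled with peptides that proteasomes cut and the Tap1-Tap2 transporter brings into the endoplasmic reticulum. MHC class II molecules are pairs of an alpha and a beta chain that dendritic cells, macrophages and B cells load with endosomal peptides for CD4+ T cells, guided by the invariant chain Cd74. Interferon-gamma raises both classes, through the transactivator Nlrc5 for class I and Ciita for class II.

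The promoters of the heavy chains, B2m, Tap1 and the class II chains are shown here because they carry the regulatory motifs for which MHC genes are known. They come from RefSeq on GRCm38.p6 and are written 5′ to 3′ on the strand of the gene. Capitals mark matches to the NF-kB site of enhancer A (GGGATTCCC), the core of an interferon regulatory factor site (AANNGAAA), CCAAT and the Y box of MHC genes (CTGATTGG), each searched on both strands. The Y box holds the reverse complement of CCAAT, so every Y box match is also a CCAAT match. The stretches lie at chr17:34000322-34000467 on the minus strand for H2-K1, chr17:35262914-35263058 on the plus strand for H2-D1, chr17:35439013-35439156 on the plus strand for H2-Q7, chr2:122147540-122147648 on the plus strand for B2m, chr17:34187324-34187351 on the plus strand for Tap1, chr17:34287857-34288046 on the minus strand for H2-Aa and chr17:34305795-34305846 on the plus strand for H2-Eb1.
H2-K1: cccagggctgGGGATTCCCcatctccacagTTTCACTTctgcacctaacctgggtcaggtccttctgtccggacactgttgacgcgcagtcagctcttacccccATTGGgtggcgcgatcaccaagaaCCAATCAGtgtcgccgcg
H2-D1: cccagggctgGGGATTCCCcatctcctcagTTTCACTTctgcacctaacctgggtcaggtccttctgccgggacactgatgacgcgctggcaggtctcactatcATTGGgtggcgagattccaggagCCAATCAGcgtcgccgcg
H2-Q7: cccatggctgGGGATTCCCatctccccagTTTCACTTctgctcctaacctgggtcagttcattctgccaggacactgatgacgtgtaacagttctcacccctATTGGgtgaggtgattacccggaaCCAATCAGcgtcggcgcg
B2m: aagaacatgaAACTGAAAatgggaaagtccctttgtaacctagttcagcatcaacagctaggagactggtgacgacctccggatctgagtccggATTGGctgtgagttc
Tap1: gctcggctttCCAATCAGcggctgcgcg
H2-Aa: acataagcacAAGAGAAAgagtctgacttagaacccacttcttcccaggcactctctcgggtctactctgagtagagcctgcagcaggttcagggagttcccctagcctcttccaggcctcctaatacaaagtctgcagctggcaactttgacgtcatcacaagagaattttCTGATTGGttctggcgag
H2-Eb1: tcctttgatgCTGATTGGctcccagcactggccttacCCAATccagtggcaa

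H2-K1, H2-D1 and H2-Q7 share the NF-kB match, the interferon regulatory factor core shortly behind it, a CCAAT match and the Y box match in the same order. Over the first 109 bases, up to the end of the ATTGG, H2-K1 and H2-D1 had 98 bases in common, or 89.9%. A promoter window from 250 bases before to 50 bases after the start was found for 36 members, of which 22 were tested. The interferon regulatory factor core was present in 12 of 17 tested class I and 2 of 5 tested class II promoters, against 23.9% of all 32851 windows. CCAAT was present in 14 of 17 and 5 of 5, against 37.4%. The Y box was present in 7 of 17 (H2-D1, H2-K1, H2-Q6, H2-Q7, H2-T23, Psmb9 and Tap1) and 2 of 5 (H2-Aa and H2-Eb1), against 4.10%. The NF-kB match was present in 4 of 17 (H2-D1, H2-K1, H2-Q6 and H2-Q7) and 0 of 5, against 0.353%. Psmb9 and Tap1 lie head to head, so their windows overlap, and several H2 promoters are copies of each other. The motifs were picked as known from MHC genes, so shares above those of all windows could be foreseen. Members were counted by gene and the background by window. The matches describe the letters of these windows and show no binding.

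The summed FPKM ranged from 690775 to 796031 per tumor and 12150 to 12681 genes reached 1 FPKM. Tnfrsf11a was at 2.07 and 0.962 FPKM in the triple-mutant and 10.6 and 11.9 FPKM in the double-mutant tumors, so it was lower in both triple-mutant tumors. Tumor 26044 stood apart: its 8 markers of mammary epithelium summed to 423 FPKM against 2018 to 3247 in the other tumors, and its 7 endothelial markers to 117 FPKM against 33.4 to 60.6. The number of reads behind each value is unknown. Members are also measured with limits of their own, since H2 genes are close copies of each other and differ between mouse strains. H2-Q9 overlaps H2-Q7 and H2-T9 overlaps H2-T22, and reads can be shared between such rows. In each tumor 17 to 19 of the 35 tested members had an FPKM that fell beyond the bounds Cufflinks gave for it. In all 4 tumors 16 of them did so, among them H2-K1, H2-D1, Psmb8, Psmb9, Psmb10, H2-Aa, H2-Ab1 and H2-Ea-ps. Ratios of FPKM that use these genes carry the same limit.

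Class I genes separated tumors rather than genotypes. In 22 of the 26 tested class I genes tumor 26043 (triple-mutant) was highest and tumor 26048 (double-mutant) second, and in 5 of the 9 class II genes, together 27 of 35 against 11.0% of all genes tested. The other triple-mutant tumor, 26044, was lowest in 13 class I genes, against 39.0% of all genes. The other double-mutant tumor, 26050, was lowest in the remaining 13, against 28.3% of all genes. All 51 members together took 1.005% of the summed FPKM in tumor 26043, 0.155% in 26044, 0.582% in 26048 and 0.204% in 26050. Tumor 26043 lay at least 1 log2 unit above 26044 in 25 of 26 class I and 5 of 9 class II genes, against 13.4% of all genes. Tumor 26048 lay at least 1 log2 unit above 26050 in 21 of 26 class I and 2 of 9 class II genes, against 7.42% of all genes. Both held at once for 23 of 35 members and for 2.20% of all genes. Since whole tumors were measured, fewer cells that express these genes and less RNA per cell cannot be told apart.

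**Figure D1:**
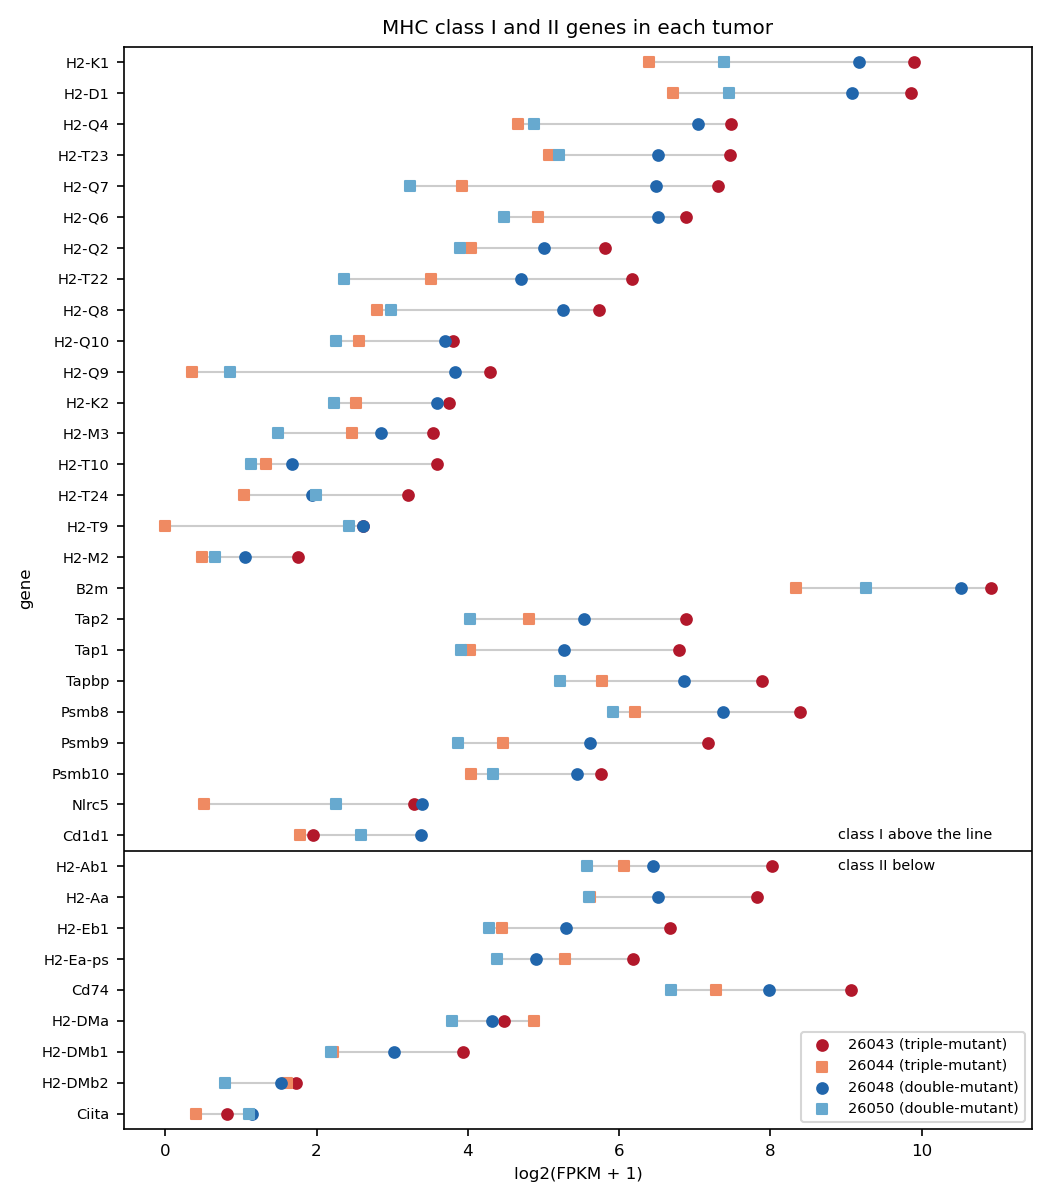
The 35 tested members (rows, class I above the line and class II below it) are plotted by log2(FPKM + 1), with 1 point per tumor, red shades for the triple-mutant and blue shades for the double-mutant tumors, and a grey line over the range. The dark circles of 26043 and 26048 both lie above the light squares of 26044 and 26050 in 29 of 35 genes, with 26043 highest in 27 of these.

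No member passed the test between genotypes. In the limma fit of log2(FPKM + 1) over 12752 genes, 0 of 35 members and 0% of all genes had an adjusted p under 0.05 (Benjamini-Hochberg), while 1 member and 1252 of all genes had an unadjusted p under 0.05. The lowest adjusted p of a member was 0.50, for Cd1d1. Genotypes did not overlap in 5 members. H2-DMa, H2-DMb2 and H2-Ea-ps, 3 of 9 class II genes, lay above both double-mutant tumors in each triple-mutant tumor, as did 0 of 26 genes of class I and 21.3% of all genes. Cd1d1, 1 of 26 class I genes, and Ciita, 1 of 9 class II genes, did the opposite, as did 22.9% of all genes. The median log2 fold change, triple-mutant minus double-mutant, was 0.24 for class I, 0.66 for class II and -0.02 for all genes. The tumors of 1 genotype differed by a standard deviation of 1.36 in the mean log2(FPKM + 1) of class I and 0.71 in that of class II, so both medians are smaller than the spread within a genotype. The difference between the triple-mutant tumors exceeded that between the genotype means in 25 of 26 class I genes, 5 of 9 class II genes and 7133 of all 12752 genes. The class I median turned with the tumors, at 1.56 without 26044, 1.14 without 26048, -0.49 without 26050 and -0.67 without 26043. For class II it was 1.54 without 26044 and -0.046 without 26043. Without 26044, the tumor that stood apart in its epithelial markers, 26043 alone stood for the triple-mutant genotype. It lay above both double-mutant tumors in 23 of 26 class I and 8 of 9 class II genes. The share of all genes was not counted beside this. With every tumor kept, 26043 was highest in 27.9% of all genes. These counts therefore describe 1 tumor and not a genotype. For a single gene, exact permutation of 2 against 2 tumors cannot give a p below 0.33.

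**Figure D2:**
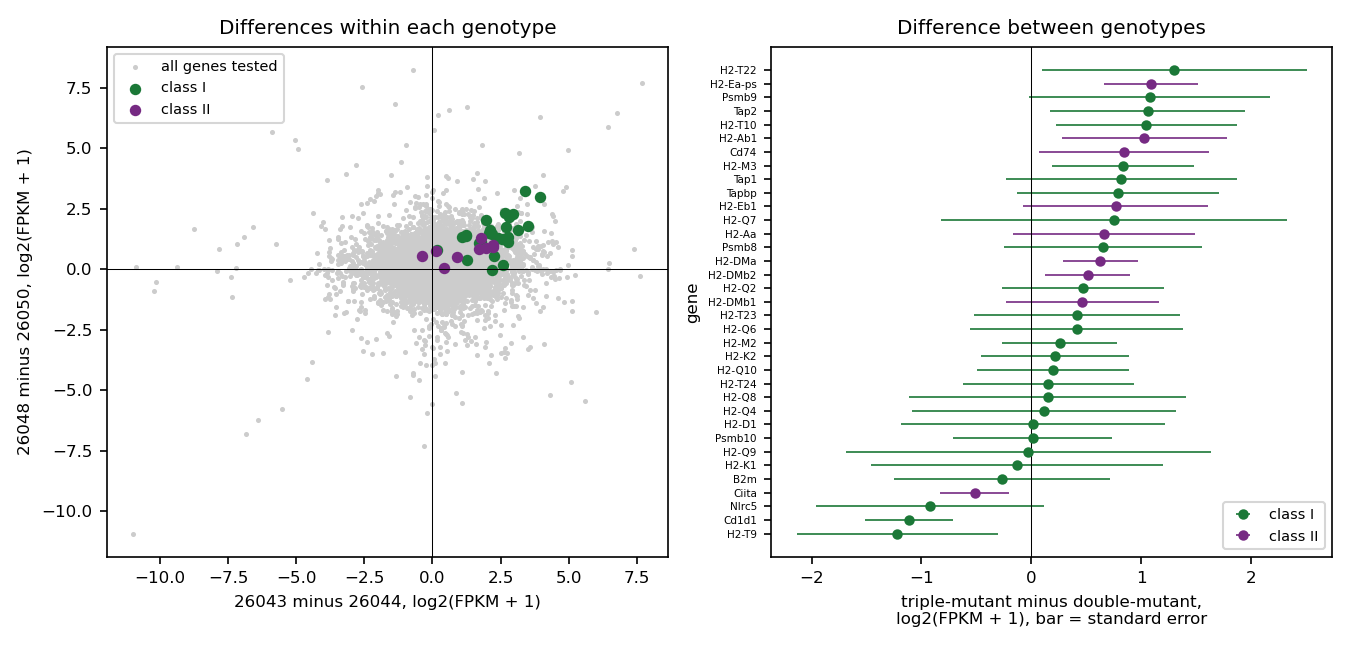
Left, the difference 26043 minus 26044 (x axis) against 26048 minus 26050 (y axis), both on the log2(FPKM + 1) scale, for all 12752 genes (grey), class I (green) and class II (purple). Right, the limma difference between genotypes with its standard error for the 35 members. Class I genes lie to the upper right on the left, with medians of 2.33 and 1.40, while most of their genotype differences on the right lie within 1 standard error of 0.

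The classical heavy chains H2-K1 (chr17:33996012-34000333) and H2-D1 (chr17:35263094-35267497), which present peptides to CD8+ T cells, were the most abundant heavy chains per length. H2-K1 was at 957 and 82.8 FPKM in triple-mutant and 573 and 166 FPKM in double-mutant tumors. H2-D1 was at 924 and 104 FPKM in triple-mutant and 541 and 174 FPKM in double-mutant tumors. Both were thus highest in 26043 and lowest in 26044, the tumors of the same genotype, with 26048 and 26050 between them. The range was 11.6-fold for H2-K1 and 8.91-fold for H2-D1. The log2 fold change between genotypes was -0.13 (SE, standard error, 1.33, limma adjusted p = 0.98) for H2-K1 and 0.02 (SE 1.1998, limma adjusted p = 0.998) for H2-D1. Although each varied widely, their ratio, H2-K1 over H2-D1, stayed between 0.799 and 1.06.

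B2m (chr2:122147687-122153082), the light chain, is encoded on another chromosome and showed the same order of tumors. It was at 1927 and 324 FPKM in triple-mutant and 1465 and 615 FPKM in double-mutant tumors, the highest values of all members, and its log2 fold change was -0.26 (SE 0.99, limma adjusted p = 0.94), or -0.08 from the midpoint of the Cufflinks interval. Its range, 5.95-fold, was narrower than that of the classical heavy chains. The ratio H2-K1 over B2m accordingly ran from 0.256 in 26044 and 0.270 in 26050 to 0.391 in 26048 and 0.497 in 26043.

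Of the 28 other class I heavy chain genes 15 were tested and all 15 overlapped between genotypes, as did 7108 of all 12752 genes. Tumor 26043 was highest in 14 of the 15, against 27.9% of all genes. Their log2 fold changes ran from -1.22 to 1.30 and their adjusted p from limma was 0.68 or more. H2-Q7, which encodes the glycolipid-anchored Qa-2 antigen, was at 158 and 14.2 FPKM in triple-mutant and 89.2 and 8.44 FPKM in double-mutant tumors, an 18.7-fold range. H2-Q9, another Qa-2 gene on the same stretch of the annotation, was at 18.6 and 0.275 against 13.3 and 0.818 FPKM, with a status of low data in every tumor. H2-Q4 was at 178 and 24.4 against 131 and 28.3 FPKM, and H2-Q6 at 117 and 29.5 against 90.3 and 21.2 FPKM. All 4 had 26043 highest, 26048 second and the other tumors well below. H2-Q8 (52.4 and 5.95 against 37.2 and 6.90 FPKM) and H2-Q2 (55.0 and 15.4 against 31.1 and 13.9 FPKM) had the same upper and lower pairs. H2-Q10, known as a secreted molecule of the liver, was at 12.9 and 4.88 against 11.95 and 3.79 FPKM, and the pseudogene H2-K2 at 12.4 and 4.75 against 11.1 and 3.71 FPKM. H2-K2 over H2-Q10 was between 0.928 and 0.977 in the 4 tumors, closer than any other pair of members compared, and reads split between similar sequences were not tested.

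H2-T23 encodes Qa-1, which presents leader peptides of other class I molecules to NK cell receptors. It was at 176 and 32.6 FPKM in triple-mutant and 90.4 and 35.8 FPKM in double-mutant tumors. H2-T22, a ligand of some gamma-delta T cell receptors, was at 71.0 and 10.4 against 25.0 and 4.17 FPKM and had the largest fold change of class I toward triple-mutant tumors, 1.30 (SE 1.202, limma adjusted p = 0.73). The related H2-T10 was at 11.0 and 1.51 against 2.20 and 1.203 FPKM, so that 26043 stood above the other 3 tumors. H2-T24 was at 8.26 and 1.05 against 2.85 and 2.98 FPKM and was the only tested class I gene in which 26050 exceeded 26048. H2-T9, listed on the stretch of H2-T22, was at 5.10 and 8.46e-05 against 5.13 and 4.39 FPKM, and its log2 fold change of -1.22 (SE 0.92, limma adjusted p = 0.68) rested on the near absence in 26044 and was -2.75 with a pseudocount of 0.1 FPKM. H2-M3, which presents formylated peptides, was at 10.7 and 4.53 against 6.20 and 1.81 FPKM, and H2-M2 at 2.36 and 0.395 against 1.07 and 0.578 FPKM.

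The 13 heavy chain genes that were not tested were low throughout. H2-M10.1, H2-M10.3, H2-M10.4, H2-M10.5 and H2-M10.6, a family known from the vomeronasal organ, were listed at 0 in all 4 tumors. The highest value in any tumor was 1.82 FPKM for H2-Bl, 1.14 for H2-Q1, 0.618 for H2-M9, 0.143 for H2-T3, 0.112 for H2-M5, 0.0861 for H2-M11, 0.0431 for H2-M10.2 and 0.0290 for H2-M1.

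Peptide supply genes were spread like the heavy chains. Tap1 (chr17:34187556-34197225) was at 110 and 15.3 FPKM in triple-mutant and 37.5 and 14.1 FPKM in double-mutant tumors. Tap2 was at 117 and 27.1 against 45.6 and 15.3 FPKM. Tapbp, tapasin, which bridges the transporter to the empty heavy chain, was at 237 and 53.7 against 115 and 36.4 FPKM. In all 3 genes 26043 was highest, 26048 second and 26050 lowest, where for H2-K1, H2-D1 and B2m 26044 was lowest. Their log2 fold changes were 0.82 (SE 1.05), 1.06 (SE 0.89) and 0.79 (SE 0.92), with adjusted p of 0.81, 0.71 and 0.79 from limma.

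Psmb8, Psmb9 and Psmb10 encode the catalytic subunits that replace Psmb5, Psmb6 and Psmb7 in the immunoproteasome. Psmb8 was at 335 and 73.0 FPKM in triple-mutant and 165 and 59.6 FPKM in double-mutant tumors. Psmb9 was at 144 and 21.1 against 48.2 and 13.6 FPKM, and Psmb10 (chromosome 8) at 53.4 and 15.5 against 42.6 and 19.2 FPKM. Their log2 fold changes were 0.65, 1.08 and 0.01, with adjusted p of 0.755 or more from limma. The constitutive subunits varied far less, with Psmb5 at 325 and 284 against 163 and 218 FPKM, Psmb6 between 210 and 245 FPKM and Psmb7 between 207 and 264 FPKM. Psmb8 over Psmb5 was 1.03 in 26043 and 1.01 in 26048 against 0.257 in 26044 and 0.273 in 26050. Psmb9 over Psmb6 was 0.586 and 0.230 in the former pair against 0.0881 and 0.0591 in the latter. Psmb10 over Psmb7 was 0.202 and 0.169 against 0.0750 and 0.0760. Each ratio thus split the tumors into the same pairs, 1 tumor of either genotype in each, and no ratio separated the genotypes.

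**Figure D3:**
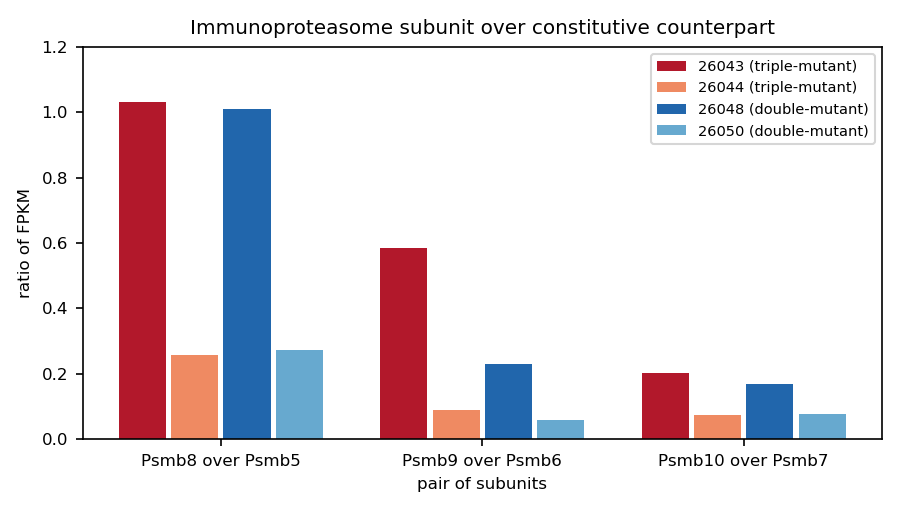
Bars show, for 3 pairs of proteasome subunits (x axis), the FPKM of the immunoproteasome subunit divided by that of its constitutive counterpart (y axis, from 0) in each tumor, 1 library per bar and no error bar. The bars of 26043 and 26048 are the taller ones in each pair of subunits, up to 1.03, and those of 26044 and 26050 the shorter ones, down to 0.0591.

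Nlrc5 (chromosome 8), the transactivator of class I genes, was at 8.77 and 0.424 FPKM in triple-mutant and 9.51 and 3.77 FPKM in double-mutant tumors. Its upper and lower pairs were those of the heavy chains, though 26048 and not 26043 was highest, and its log2 fold change was -0.92 (SE 1.04, limma adjusted p = 0.78), or -1.50 with a pseudocount of 0.1 FPKM, since 26044 lay under 1 FPKM. Cd1d1 (chr3:86995836-86999340), which presents lipids to NKT cells and is not encoded in the MHC, went another way. It was at 2.89 and 2.45 FPKM in triple-mutant and 9.38 and 5.04 FPKM in double-mutant tumors, with no overlap and a log2 fold change of -1.11 (SE 0.40, limma adjusted p = 0.50), the lowest p of the members but short of the threshold.

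Class II genes followed the same tumors less tightly. Tumor 26043 was highest in 7 of 9, against 27.9% of all genes, and 26050 lowest in 8 of 9, against 28.3%. H2-Aa, the I-A alpha chain, was at 226 and 48.2 FPKM in triple-mutant and 90.8 and 47.5 FPKM in double-mutant tumors. Its partner H2-Ab1, the I-A beta chain, was at 258 and 65.9 against 86.5 and 46.5 FPKM. H2-Eb1, the I-E beta chain, was at 101 and 21.0 against 38.4 and 18.5 FPKM. In these chains 26043 lay 1.31 to 1.57 log2 units above 26048, the second tumor, and 26044 lay 0.02 to 0.49 log2 units above 26050. The ratio of the I-A chains, H2-Aa over H2-Ab1, was 0.731 to 1.05 by FPKM. Both genes had FPKM beyond their Cufflinks bounds in all 4 tumors. In 26043 the bounds were 171 to 185 FPKM for H2-Aa and 133 to 144 FPKM for H2-Ab1, the reverse order of their FPKM. The log2 fold changes were 0.66 (SE 0.83) for H2-Aa, 1.03 (SE 0.75) for H2-Ab1 and 0.77 (SE 0.84) for H2-Eb1, with adjusted p of 0.81, 0.67 and 0.78 from limma.

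H2-Ea-ps, the I-E alpha gene, carries that name because the reference strain lacks its promoter, and other strains express it. In these tumors it was at 71.7 and 37.8 FPKM in triple-mutant and 28.8 and 19.9 FPKM in double-mutant tumors and exceeded H2-Eb1 in 26044 and, by FPKM alone, in 26050. In 26050 the upper Cufflinks bound of H2-Ea-ps, 17.2 FPKM, lay below its own FPKM and below the 18.5 FPKM of H2-Eb1. It was the only class II chain without overlap between genotypes, with a log2 fold change of 1.09 (SE 0.43, limma adjusted p = 0.52). H2-Eb2, a second I-E beta gene, reached at most 0.0433 FPKM and was not tested.

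Cd74 (chromosome 18), the invariant chain, was the most abundant class II member. It was at 536 and 155 FPKM in triple-mutant and 251 and 102 FPKM in double-mutant tumors, or 0.85 as log2 fold change (SE 0.77, limma adjusted p = 0.73). Cd74 over H2-Ab1 was between 2.08 and 2.90, a 1.40-fold range where Cd74 alone spanned 5.27-fold. Among the genes of H2-DM, which trades the invariant chain remnant for peptide, H2-DMa behaved differently from the chains. It was at 21.4 and 28.4 FPKM in triple-mutant and 18.9 and 12.8 FPKM in double-mutant tumors, with 26044 highest, and had a log2 fold change of 0.63 (SE 0.35, limma adjusted p = 0.60). H2-DMb1, which encodes its beta chain, had the order of the I-A chains instead, at 14.3 and 3.65 against 7.14 and 3.58 FPKM. H2-DMb2 was at 2.33 and 2.04 against 1.88 and 0.726 FPKM, low in 26050 alone, and its log2 fold change of 0.51 was 0.83 with a pseudocount of 0.1 FPKM. H2-Oa and H2-Ob, the chains of the H2-DM inhibitor H2-DO, were not tested, with highest values of 0.542 and 0.2002 FPKM.

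Ciita, the transactivator of class II genes, was low and did not follow its targets. It was at 0.766 and 0.330 FPKM in triple-mutant and 1.22 and 1.16 FPKM in double-mutant tumors. Both double-mutant tumors lay above both triple-mutant tumors, while all 4 tested class II chains, Cd74 and the H2-DM genes had their highest value in a triple-mutant tumor. Its log2 fold change was -0.52 (SE 0.31, limma adjusted p = 0.62), and at these levels the added 1 FPKM shrinks the fold, which was -1.08 with a pseudocount of 0.1 FPKM.

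Few of the other genes on the same stretch of chromosome 17 shared the spread. The MHC interval from Tapbp to H2-M2 (chr17:33919478-37483529, 3.56 Mb) held 45 members and 152 other rows, of which 90 were tested. Tumor 26043 lay at least 1 log2 unit above 26044 in 26 of the 29 tested members of the interval but in 11 of the 90 other genes, or 12.2%, close to the 13.4% of all genes. Tumor 26048 lay at least 1 log2 unit above 26050 in 19 of the 29 members and in 8 of the 90 other genes. Both held for 3 of these neighbors, chosen here after their values were seen: the ubiquitin-like Ubd, the collagen gene Col11a2 and the gene model Gm8909. Gm8909 lies between H2-T10 and H2-T3. Members were found by name, so whether gene models among the neighbors are themselves MHC genes was not tested. The medians of the neighbors were 0.18 and 0.20, against 2.18 and 1.36 for the members between them. Of the 6 tested members encoded elsewhere, B2m, Cd74, Nlrc5 and Psmb10 met both criteria, and Cd1d1 and Ciita met neither.

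**Figure D4:**
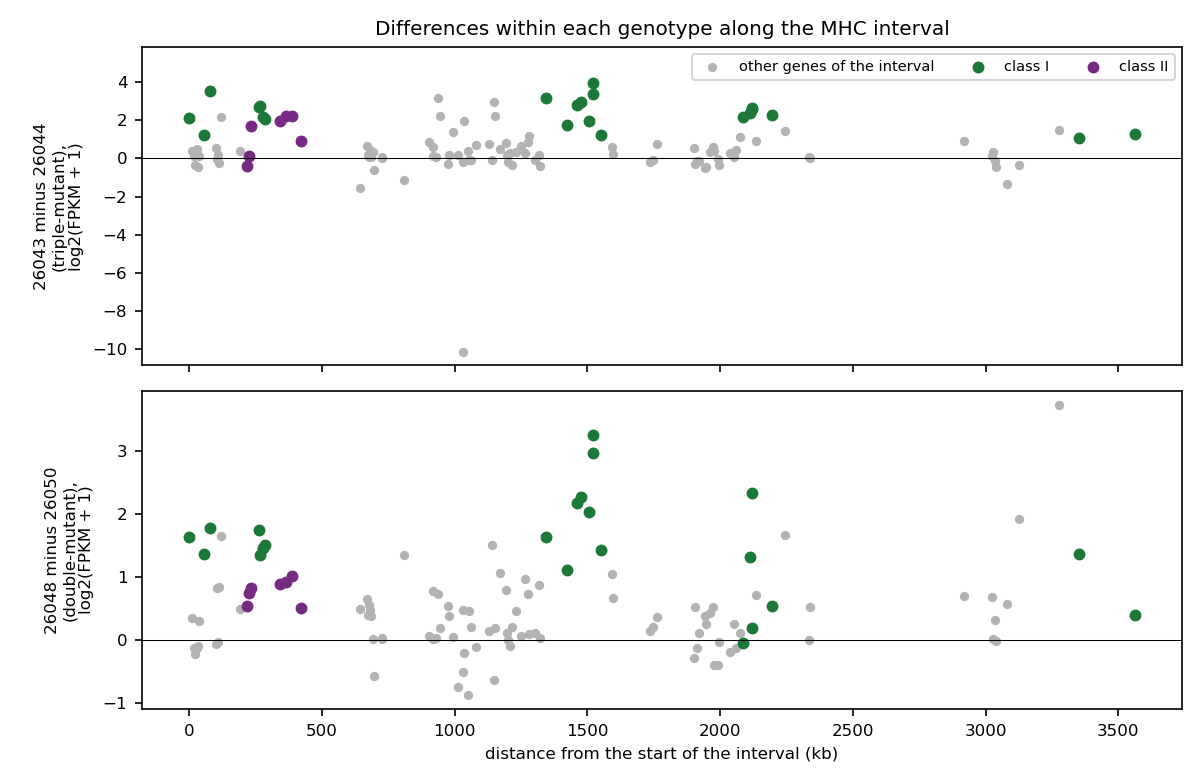
Differences between the triple-mutant tumors (upper panel) and between the double-mutant tumors (lower panel) on the log2(FPKM + 1) scale for tested genes of the MHC interval, against distance from its start in kb. Class I (green) lies above most of the other genes (grey) wherever it sits along the interval, and class II (purple) lies nearer to them in the lower panel. The point near -10 in the upper panel is the small RNA gene Snord52, listed at 0 in tumor 26043.

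Partner genes of the pathway were read from lists chosen with earlier results of these data known, and no gene of these lists passed the adjusted threshold. Of 16 genes of class I peptide processing and loading, 11 overlapped between genotypes, as did 7108 of all 12752 genes, and 3 had 26043 highest and 26048 second, against 11.0% of all genes, and the median within-genotype differences were 0.47 and 0.00. Psme2, an activator subunit of the immunoproteasome, was at 280 and 138 FPKM in triple-mutant and 106 and 94.3 FPKM in double-mutant tumors. Tpp2, a cytosolic peptidase, was at 11.9 and 11.0 against 22.8 and 21.8 FPKM. Of 11 tested genes of endosomal processing for class II 7 overlapped, again near the share of all genes. The protease Ctsh was at 71.4 and 12.9 against 115 and 121 FPKM, and the protease Lgmn at 76.0 and 62.0 against 115 and 139 FPKM. The ubiquitin ligase March8 was at 18.5 and 10.4 against 24.1 and 20.5 FPKM. All 3 were higher in both double-mutant tumors, while Ctsz (196 and 227 against 156 and 190 FPKM) was higher in both triple-mutant tumors.

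Of 18 transcription regulators of MHC genes, 4 had 26043 highest and 26048 second, against 11.0% of all genes. Irf1, an interferon regulatory factor, was at 31.7 and 18.4 FPKM in triple-mutant and 47.4 and 16.97 FPKM in double-mutant tumors, with the upper and lower pairs of the heavy chains but 26048 on top. The interferon-gamma receptor chain Ifngr2 was at 31.5 and 13.4 against 84.0 and 51.9 FPKM, the NF-kB subunit Nfkb1 at 30.6 and 18.0 against 16.3 and 9.86 FPKM, and Rfxap, a subunit of the factor that binds class II promoters, at 12.3 and 13.1 against 10.3 and 7.90 FPKM. Of the 18 regulators, 3 were higher in both triple-mutant tumors and 1 in both double-mutant tumors, against 21.3% and 22.9% of all genes. The first group was Nfkb1, Rfxap and Nfyb (12.2 and 9.70 against 7.45 and 9.22 FPKM), and the second was Ifngr2. Ifng itself was listed at 0 in both triple-mutant tumors and at 0.0631 and 0.0292 FPKM in the double-mutant tumors, and of 6 interferon-related ligands found Il18 alone was tested. Among other ligands and costimulatory molecules, Mr1 (6.50 and 4.999 against 3.14 and 3.16 FPKM), Icosl (2.98 and 26.9 against 2.56 and 2.93 FPKM) and Cd4 (1.68 and 2.20 against 1.003 and 0.515 FPKM) were higher in both triple-mutant tumors, and Ulbp1 (1.45 and 1.77 against 1.94 and 5.30 FPKM) was lower in both.

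Markers of the leukocytes that carry class II, and of other cells, moved with the members in part. The 8 general leukocyte markers summed to 112 and 66.6 FPKM in triple-mutant and 186 and 167 FPKM in double-mutant tumors, and 7 of 8 were higher in both double-mutant tumors, against 22.9% of all genes. Ptprc (CD45) was at 3.67 and 1.61 against 3.97 and 4.02 FPKM, Lcp1 at 19.7 and 11.8 against 65.0 and 65.5 FPKM, Cd53 at 4.15 and 2.43 against 7.27 and 7.61 FPKM and Arhgap9 at 2.77 and 1.38 against 5.67 and 3.15 FPKM. Tumor 26050 had the second highest leukocyte sum and the lowest value in 8 of 9 class II genes. Tumor 26043 had the third highest leukocyte sum and was highest in 30 of 35 tested members. Whether the leukocyte content of a tumor bears on its MHC values was not tested. The 10 macrophage markers found summed to 681 and 316 against 809 and 603 FPKM, with Csf1r at 16.5 and 12.4 against 27.1 and 15.9 FPKM. The macrophage sum had 26048 and 26043 on top, but it is led by C1qa, C1qb and C1qc, and the mean log2(FPKM + 1) of the markers was 4.56 and 3.83 against 5.05 and 4.62, with 26050 above 26043. Of these Mrc1 (1.13 and 2.78 against 5.26 and 4.55 FPKM), Emr1 (6.74 and 4.52 against 13.4 and 10.3 FPKM) and Cd68 (23.3 and 26.2 against 37.3 and 53.3 FPKM) did not overlap and were higher in double-mutant tumors. The 10 dendritic cell markers summed to 11.2 to 16.3 FPKM, with Itgax (CD11c) at 6.33 and 1.51 against 4.71 and 4.78 FPKM. The 6 neutrophil markers summed to 38.7 and 12.8 against 12.2 and 54.5 FPKM, with Csf3r at 1.29 and 0.498 against 1.53 and 1.90 FPKM and Cxcr2 at 1.12 and 0.461 against 1.30 and 1.39 FPKM.

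Most lymphocyte markers were low, with Cd3e, Cd8a and Cd79a under 1 FPKM in every tumor. In 26044 Cd4 reached 2.20 FPKM and the B cell marker Cd79b 1.22 FPKM. Cd3e was at 0.478 and 0.0979 FPKM in triple-mutant and 0.444 and 0.156 FPKM in double-mutant tumors, and Cd8a at 0.343 and 0.109 against 0.508 and 0.0795 FPKM, with the upper and lower pairs of the class I genes. Cd79a, a B cell marker, was at 0.145 and 0.259 against 0.484 and 0.166 FPKM. Of 10 T and NK cell markers found 2 were tested, Lck at 6.52 and 5.67 against 3.11 and 6.65 FPKM and Nkg7 at 2.97 and 0.0931 against 2.16 and 0 FPKM. Cd5 was at 3.66 FPKM in 26050 and below 1 FPKM elsewhere. No B cell marker of 8 was tested, and 3 T and NK cell markers were listed at 0 in 26044 and 3 in 26050. The 6 markers of lymph node stroma and follicle summed to 0.4 to 6.0 FPKM. The 8 epithelial markers summed to 3247 and 423 against 2396 and 2018 FPKM, with Epcam at 347 and 25.7 against 516 and 390 FPKM. Tumor 26044 was low in these markers and in class I genes. Tumor 26050 was low in class I and most class II genes, with an epithelial sum of 2018 FPKM. Krt5 and Krt14, keratins of basal cells, were at 596 and 114 against 1.15 and 2.06 FPKM and at 611 and 42.5 against 2.08 and 6.99 FPKM. Both are part of the epithelial sum and raise it in 26043 far more than in 26048 and 26050. The 8 fibroblast markers summed to 206 and 123 against 908 and 439 FPKM, with Col1a1 at 102 and 32.6 against 486 and 200 FPKM, Col3a1 at 22.7 and 14.0 against 135 and 83.1 FPKM and Dpt at 0.239 and 0.0187 against 8.32 and 6.52 FPKM. The sum is led by collagens, and the markers did not move as 1: Pdgfra was higher in both triple-mutant tumors, at 2.90 and 19.1 against 1.63 and 1.44 FPKM, and Dcn was highest in 26043, at 19.3 and 5.47 against 13.7 and 13.0 FPKM. The muscle marker Des was at 2.49 and 3.75 against 6.85 and 7.71 FPKM, and the 6 adipocyte markers summed to 166 FPKM in 26048 against 1.2 to 2.6 FPKM in the other tumors. The part of these cells in the MHC values was not tested.

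**Figure D5:**
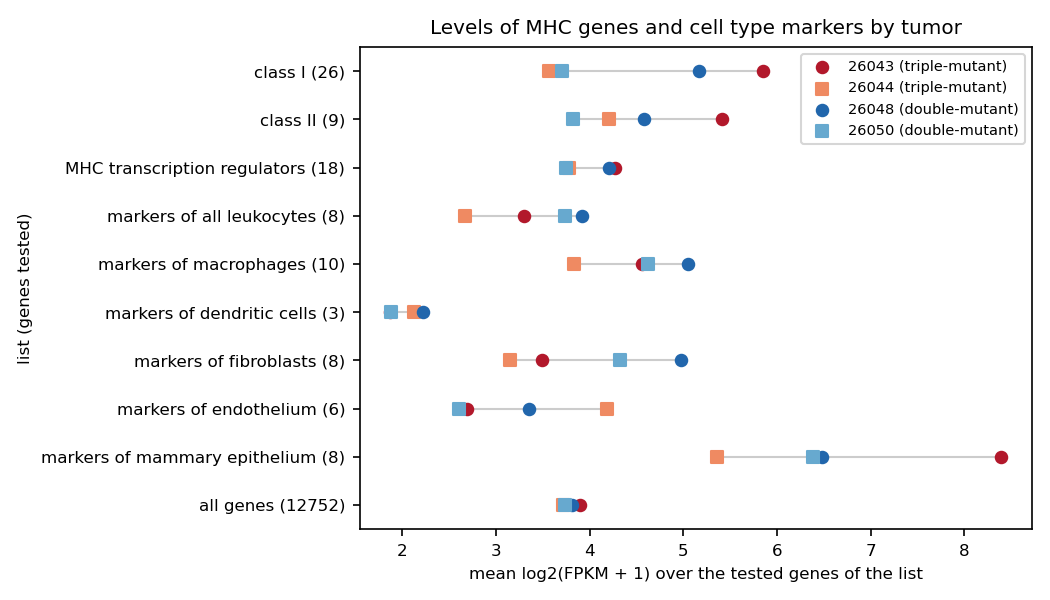
Mean log2(FPKM + 1) over the tested genes of each list (rows, number of genes in parentheses) in each tumor, with red shades for the triple-mutant and blue shades for the double-mutant tumors. Class I genes were at 5.85 in 26043 and 5.17 in 26048 against 3.57 in 26044 and 3.71 in 26050, while leukocyte markers were at 3.92 and 3.73 in the double-mutant and 3.30 and 2.67 in the triple-mutant tumors.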

How the data were processed

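PolyA RNA of 4 tumors, 2 per genotype, was measured, with genotypes and tumor numbers taken from the sample labels. The authors made strand-marked (dUTP) libraries, read them as 50-bp single ends, aligned to mm10 using TopHat2 2.0.10 and Bowtie 0.12.9 and derived FPKM per gene using Cufflinks 2.1.1, per the methods and the submitters' processing notes. The deposited tables hold the FPKM and the bounds of its confidence interval. The authors' HTSeq counts and DESeq2 1.6.2 results were not analysed here, so the depth is unknown, and FPKM are not counts.

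The tables were joined on gene and position. Genes that reached 1 FPKM in 2 or more tumors (12752 of 23746) were compared as log2(FPKM + 1) with limma 3.58.1 (lmFit, eBayes with a trend, R 4.3.3), as triple-mutant less double-mutant, and p was adjusted by Benjamini-Hochberg over all genes at a threshold of 0.05. The script was tested on simulated data. Nothing says which tumors share a litter, so p-values measure the spread between these tumors. Coordinates are those of the tables on mm10, counted from 1, and 48 of 51 members overlapped the GENCODE M21 gene of the same symbol. Promoter windows came from RefSeq on GRCm38.p6, the same assembly. Tables and plots were made in Python 3.11.15 (matplotlib 3.10.9, numpy 2.4.6, pandas 2.3.3).

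The members and the 18 partner and marker lists were chosen with earlier results of these data known. Every tested member is named with its values, untested members with their highest value, and of the lists Psmb5, Psmb6, Psmb7, Ifng, Irf1, Ptprc, Cd3e, Cd8a, Cd79a, Itgax and Csf1r, together with up to 3 genes per list with the largest fold change among those whose genotypes do not overlap. The result of 1 further gene of the rule is not reported here. The alternatives were 0.1 as pseudocount, no filter or one of 5 FPKM, TPM, quantile normalization, no trend, status OK only, the interval midpoint and each tumor left out.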

Additional observations from a re-analysis of the deposited data

How the results depend on the processing

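No alternative put a member past the adjusted threshold. The lowest adjusted p of a member from limma was 0.12 to 0.99 over the 12 alternatives, and all genes gave 6 calls after quantile normalization, 5 without the trend, 1 with the interval midpoint and 0 otherwise. The median log2 fold change of class I stayed between 0.20 and 0.28, and that of class II between 0.57 and 0.78, as long as all 4 tumors were used. Without a filter 1 class I gene, with a filter of 5 FPKM 0 class II genes and after quantile normalization 2 class I genes lay higher in both tumors of a genotype, triple-mutant in the first case and double-mutant in the other two. Leaving out 1 tumor moved the results most. Class I genes higher in the triple-mutant tumors ran from 0 to 23 and in the double-mutant tumors from 1 to 13. Class II genes higher in the triple-mutant tumors ran from 3 to 8. These counts leave 1 tumor in a genotype, and the share of all genes was not counted beside them. The medians ran from -0.67 to 1.56 for class I and from -0.046 to 1.54 for class II. Of 35 members, 22 changed sign without 26043, 12 without 26050, 5 without 26044, 3 without 26048, and 2 each with TPM and the interval midpoint. With 1 tumor left in a genotype its spread is assumed to be that of the other. No paired analysis was possible because the genotypes share no replicate numbers. Depth is unknown, and for members below 1 FPKM in a tumor, such as Ciita, H2-Q9, H2-T9, Nlrc5 and H2-M2, the log2(FPKM + 1) scale understates fold changes.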
